A study of Homo sapiens with 18 samples.

Results

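The primary cilium and basal body genes described here are 53 human genes that encode the machinery with which a cell builds and maintains its primary cilium, out of 26668 gene symbols in the deposited expression table. The rule that chose them is a list of gene names. It sets no threshold on a measured value, but the list was chosen with earlier results of these data known. The list holds 11 genes of the intraflagellar transport complex IFT-B, 7 of IFT-A and its adaptor TULP3, 5 of the motors, 9 of the BBSome with its GTPase and chaperonins, 14 of the transition zone and inversin compartment, and 7 of the distal appendages and centriole base. The RNA came from PANC-1, MIA PaCa-2 and PaTu 8988T, 3 established human lines of pancreatic cancer, in which OFD1, a protein of centriolar satellites and of the distal centriole, was knocked down with an shRNA that doxycycline switches on. Each line had 3 shControl libraries, labelled wild type and untreated, and 3 shOFD1 libraries, labelled as doxycycline-induced and taken at 72 h, 18 libraries in all. According to the study's methods both groups carried the Tet-on shOFD1 construct and the controls received DMSO, whereas the titles name a control shRNA. The series text places the groups at day 0 and day 3. Whether doxycycline itself, the construct or time in culture differed between the groups therefore cannot be told apart from the knockdown. The study's methods list 2 shRNA sequences against OFD1 and the labels do not say which was used. Whether the replicates were separate cultures was not given, so that the p-values measure the spread between these libraries. The titles name PaTu 8988T for all 6 of its libraries, while the source names of 4 of these, replicates 2 and 3 of each group, end in other numbers. The titles were followed.

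The primary cilium is a single antenna-like projection, grown from the mother centriole when a cell leaves the division cycle, and it carries Hedgehog and other receptors. Its mother centriole docks to the membrane through distal appendages and becomes the basal body, the transition zone above it gates entry, IFT trains carry cargo along the axoneme, and the BBSome moves membrane proteins out of it. Pancreatic ductal cells normally carry a primary cilium, and pancreatic cancer cells often lack it.

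Expression was given as FPKM, the reads counted on a gene per kilobase of its length and scaled to the reads counted in the library, and the libraries held between 32644563 and 39798210 counted reads. A gene was tested in a line when its mean over the 6 libraries was at least 1 FPKM, and was called higher or lower at an adjusted p below 0.05 from limma, with the Benjamini-Hochberg method over all genes tested in that line. Fold changes are shOFD1 minus shControl on the log2(FPKM + 0.1) scale and are followed, after ±, by their standard error, and SDs are over 3 libraries. Of the keratins of ductal cells, KRT8 and KRT18 were abundant in every line, whereas KRT19 was at 0.0194 FPKM in 1 PaTu 8988T library and at 0 in the other 5, and in MIA PaCa-2 CDH1 averaged 0.00710 FPKM and EPCAM 0.0249 FPKM. Acinar markers summed to at most 1.05 FPKM in any library. The summed level of 8 fibroblast markers, of which 3 reached 1 FPKM in MIA PaCa-2, was 159 to 190 FPKM in its shControl and 239 to 241 FPKM in its shOFD1 libraries. COL1A2 made up most of it, with means of 162 and 205 FPKM in these groups, and COL3A1 and ACTA2 were the others over 1 FPKM. COL1A1 averaged 0.0777 FPKM over the 6 libraries, and DCN, LUM, PDGFRB and FAP less. Of 5 leukocyte markers, PTPRC alone averaged at least 1 FPKM over the 6 libraries of a line, and in MIA PaCa-2 alone. It read 4.45, 2.32 and 3.76 FPKM in the shControl and 6.22, 5.89 and 5.9 FPKM in the shOFD1 libraries there. The sum of the 5 lay between 2.46 and 4.63 FPKM in the shControl and between 5.92 and 6.27 FPKM in the shOFD1 libraries of that line. It lay between 0.348 and 1.59 FPKM in PANC-1 and at or below 0.184 FPKM in PaTu 8988T. CD14 in PANC-1 read 1.49, 1.43 and 0.914 FPKM in the shControl and 0.343, 0.541 and 0.897 FPKM in the shOFD1 libraries. The 10 markers of motile cilia, which these cells should lack, were under 1 FPKM in MIA PaCa-2 and PaTu 8988T. In PANC-1 2 of the 10, CCDC40 and DNAH5, reached 1 FPKM, and the sum of the list lay between 3.81 and 4.37 FPKM in the shControl and between 6.92 and 7.08 FPKM in the shOFD1 libraries. FOXJ1, the factor that defines motile ciliated cells, averaged 0.0429 FPKM in PANC-1, 0.0231 FPKM in MIA PaCa-2 and 0 in PaTu 8988T. The part of these marker genes in the results was not tested.

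OFD1 itself was lower in each line. In PANC-1 it read 5.5, 5.12 and 5.67 FPKM in the shControl libraries and 2.8, 2.27 and 2.58 FPKM in the shOFD1 libraries (log2 fold change -1.07 ± 0.09, limma adjusted p = 2.70e-06). In MIA PaCa-2 it read 3.09, 2.27 and 3.2 FPKM in the shControl libraries and 1.76, 1.74 and 1.97 FPKM in the shOFD1 libraries (-0.61 ± 0.16, limma adjusted p = 0.0232; without control replicate 2, -0.76 ± 0.09, limma adjusted p = 8.70e-05). In PaTu 8988T it read 2.14, 1.93 and 2.12 FPKM in the shControl libraries and 0.986, 0.894 and 0.854 FPKM in the shOFD1 libraries (-1.10 ± 0.10, limma adjusted p = 5.47e-05). There OFD1 passed the filter only through its shControl libraries. The OFD1 groups did not overlap in any line, which was so for 75.0% of all genes in PANC-1, 59.3% in MIA PaCa-2 and 51.9% in PaTu 8988T. The call in MIA PaCa-2 did not hold when either of control replicates 1 and 3 or any of the 3 shOFD1 libraries was left out, with adjusted p between 0.0608 and 0.0899, nor without a filter on low values, with adjusted p = 0.0504.

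One library stood apart. In MIA PaCa-2, control replicate 2 differed from the other 2 controls by a chi-square of 129.97 and 132 per degree of freedom over all genes, whereas every other pair of replicates in the series lay between 3.06 and 12.3. Its difference followed the base composition of the transcripts. Over the 49 cilium genes tested in MIA PaCa-2, the Pearson correlation between GC content and the difference of this library from the other 2 controls was 0.90, all points coming from the same 3 libraries. Of 15 genes at 50% GC or more, 14 were above the other controls, with a median of 0.36 on the log2 scale, and of 34 genes under 50% GC, 7 were above them, with a median of -0.37. Results of tests in MIA PaCa-2 are therefore given also without this library.

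**Figure D1:**
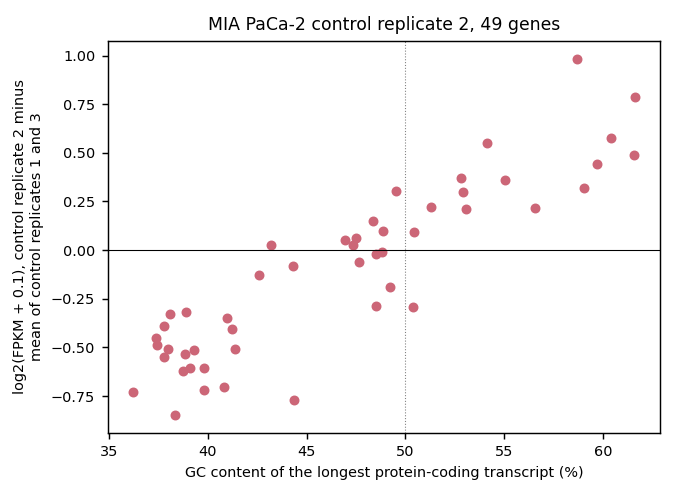
Each point is 1 of the 49 cilium and basal body genes tested in MIA PaCa-2. The x axis is the GC content of its longest protein-coding transcript in percent, the y axis is log2(FPKM + 0.1) in control replicate 2 minus the mean of control replicates 1 and 3, and the dotted line marks 50% GC. Most genes under 50% GC lie below 0 and 14 of the 15 others lie above it.

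More cilium genes were called higher than lower in PANC-1 and MIA PaCa-2, and in PaTu 8988T more were called lower than higher. In PANC-1, all 53 genes were tested, and 33 were higher and 7 lower in the shOFD1 libraries. Among all 10902 genes tested in PANC-1, 40.1% were higher and 32.2% lower, 72.3% in either direction. The median log2 fold change was 0.31 over the cilium genes and 0.06 over all genes. In MIA PaCa-2, 49 were tested, and 23 were higher and 6 lower, against 18.7% higher and 21.7% lower of 10758 genes, 40.4% in either direction, with medians of 0.34 and -0.03. Without control replicate 2, 31 were higher and 10 lower of 50 tested, against 35.4% and 39.8% of all genes, and the same 23 rises and 6 falls were among them. CEP83, called lower, passed the filter only in that fit. Leaving out shOFD1 replicate 1, 2 or 3 gave 14, 15 and 15 higher and 2, 2 and 1 lower, and leaving out control replicate 1 or 3 gave 20 and 19 higher and 4 and 5 lower. In PaTu 8988T, 48 were tested, and 8 were higher and 12 lower, against 20.9% higher and 18.5% lower of 10698 genes, 39.4% in either direction, with medians of -0.08 and 0.03. The PaTu 8988T counts depended on the libraries used. They were 3 higher without control replicate 2, 5 without control replicate 3 or shOFD1 replicate 3, and 6 without any other 1. Lower were 8 without any 1 control, and 16, 13 and 9 without shOFD1 replicate 1, 2 and 3. They were 3 higher with no filter on low values, and 22 lower with library weights. Fewer cells that express a gene and less RNA of it per cell cannot be told apart in such bulk libraries.

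**Figure D2:**
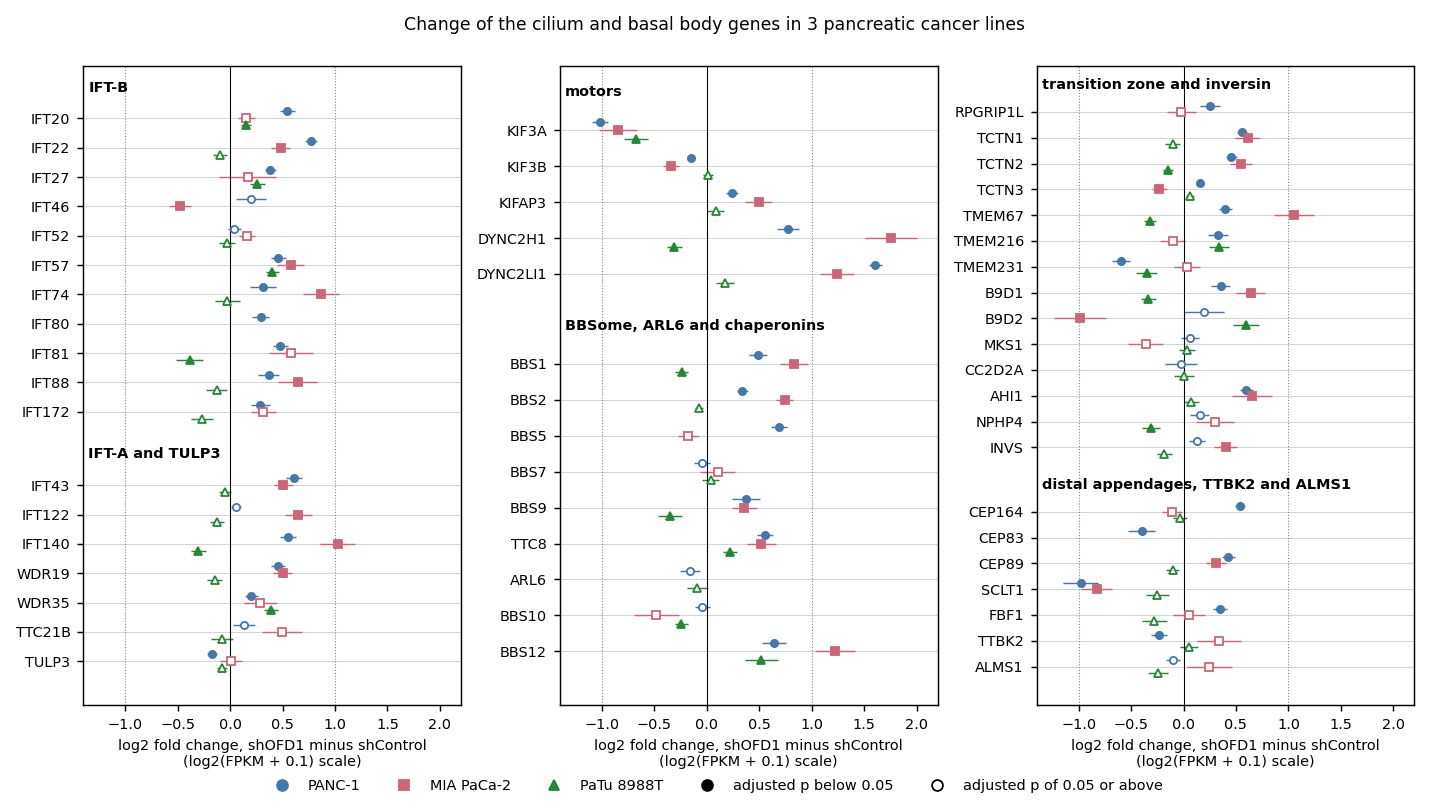
Log2 fold change, shOFD1 minus shControl on the log2(FPKM + 0.1) scale, of each cilium and basal body gene by role. Blue circles are PANC-1, red squares MIA PaCa-2 and green triangles PaTu 8988T, bars are 1 standard error, filled symbols have a limma adjusted p below 0.05, dotted lines mark a 2-fold change, and a line in which a gene was not tested has no symbol. DYNC2LI1 and DYNC2H1 lie farthest to the right, and KIF3A lies left of 0 in all 3 lines.

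Few of these changes were large. Past 2-fold with an adjusted p below 0.05, PANC-1 had 2 cilium genes, DYNC2LI1 upward and KIF3A downward, where 1.75% of all genes passed upward, 4.84% downward and 6.60% in either direction. MIA PaCa-2 had 5, DYNC2H1, DYNC2LI1, BBS12, TMEM67 and IFT140, all upward, where 4.07% of all genes passed upward, 3.68% downward and 7.75% in either direction. When control replicate 2 was left out, TMEM67 no longer passed and KIF3A passed downward, and the other 4 still passed. The control means of DYNC2H1, BBS12 and IFT140 were 0.85, 0.696 and 0.757 FPKM, under the 1 FPKM that the filter asks of the mean over 6 libraries. These 3 were therefore tested only through their shOFD1 libraries. With no filter 5 passed, with a mean of at least 5 FPKM 1, and with a pseudocount of 1 FPKM 2. PaTu 8988T had none in limma, where 0.159% of all genes passed upward, 0.841% downward and 1.0% in either direction, and where its largest changes were -0.68 for KIF3A and 0.59 for B9D2. Taken library by library, the median of the cilium genes tested lay 0.29 to 0.33 above the control mean on the log2 scale in the 3 PANC-1 shOFD1 libraries, 0.33 to 0.38 above it in the 3 MIA PaCa-2 shOFD1 libraries, and between -0.13 and -0.04 in the 3 of PaTu 8988T. The median of all genes in these 9 libraries lay between -0.03 and 0.06.

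**Figure D3:**
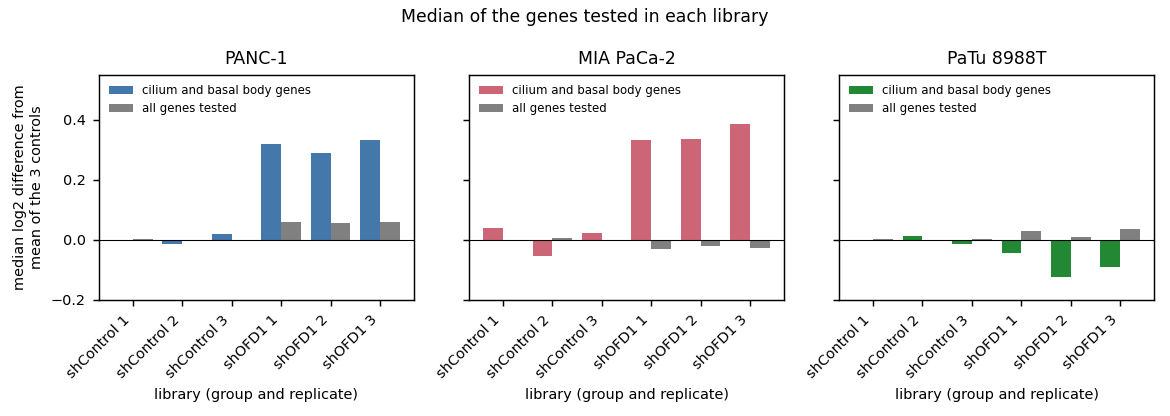
Median over genes of the log2(FPKM + 0.1) difference from the mean of the 3 shControl libraries of the same line, for each library on the x axis. Coloured bars are the cilium and basal body genes tested in the line and grey bars all genes tested. The 3 shOFD1 libraries of PANC-1 and of MIA PaCa-2 stand at 0.29 or higher, and those of PaTu 8988T at or below -0.04.

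IFT-B is the complex that carries tubulin and other cargo from the base to the tip. All 11 of its genes had a positive log2 fold change in PANC-1, as had 55.6% of all genes tested there, and 9 were called higher, none lower. Of all genes 40.1% were higher and 32.2% lower there. IFT46 had a control mean of 0.952 FPKM in PANC-1, under the 1 FPKM of the filter, and was tested there only through its shOFD1 libraries. IFT22, a RAB-like GTPase of the complex, read 5.11, 5.55 and 5.18 FPKM in the shControl libraries and 9.11, 9.09 and 9.05 FPKM in the shOFD1 libraries there (0.77 ± 0.06, limma adjusted p = 8.97e-07), and the groups did not overlap. In MIA PaCa-2 4 of 10 were higher and 1 lower, where 18.7% of all genes were higher and 21.7% lower. Without control replicate 2 there were 9 higher and 1 lower of 10, where 35.4% of all genes were higher and 39.8% lower. IFT74, which with IFT81 forms the tubulin-binding module, read 1.81, 1.26 and 1.93 FPKM in the shControl libraries and 2.93, 3.13 and 3.17 FPKM in the shOFD1 libraries (0.87 ± 0.17, limma adjusted p = 0.00845; without control replicate 2, 0.69 ± 0.08, limma adjusted p = 8.01e-05). IFT46, a core subunit, went the other way, from 3.1, 3.44 and 3.08 to 2.16, 2.31 and 2.34 FPKM (-0.48 ± 0.11, limma adjusted p = 0.0125; without control replicate 2, -0.43 ± 0.08, limma adjusted p = 0.00104). This call failed without any 1 of the shOFD1 libraries. In PaTu 8988T 3 of 9 were higher and 1 lower, where 20.9% of all genes were higher and 18.5% lower. IFT81 read 3.5, 3.7 and 3.69 FPKM in the shControl libraries and 3.1, 2.17 and 3.1 FPKM in the shOFD1 libraries (-0.39 ± 0.13, limma adjusted p = 0.0361), and its call did not hold when any 1 of the 3 controls was left out.

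IFT57, a peripheral subunit of IFT-B, was the 1 IFT gene called higher in all 3 lines. It read 7.36, 6.87 and 6.59 FPKM in the shControl libraries and 10.1, 8.74 and 9.88 FPKM in the shOFD1 libraries in PANC-1 (0.46 ± 0.07, limma adjusted p = 1.95e-04). In MIA PaCa-2 it read 9.75, 7.44 and 9.29 FPKM in the shControl libraries and 14.2, 13 and 12.3 FPKM in the shOFD1 libraries (0.58 ± 0.13, limma adjusted p = 0.0124; without control replicate 2, 0.46 ± 0.06, limma adjusted p = 1.79e-04). In PaTu 8988T it read 10.4, 10.8 and 9.23 FPKM in the shControl libraries and 13.9, 13.1 and 13.2 FPKM in the shOFD1 libraries (0.40 ± 0.06, limma adjusted p = 0.00110). Every shOFD1 library was above every control of its line, and the rise lay between 0.40 and 0.58. The call in MIA PaCa-2 failed without shOFD1 replicate 1 or 2. IFT27, the small GTPase that links IFT-B to BBSome exit, was higher in PANC-1 and PaTu 8988T, at 0.38 (limma adjusted p = 1.16e-04) and 0.26 (limma adjusted p = 0.0209). Its PaTu 8988T call failed without control replicate 1, control replicate 2 or shOFD1 replicate 3. In MIA PaCa-2 its control replicate 2 read 8.12 FPKM against 4.27 and 3.84 FPKM in the other controls, and IFT27 was called higher only without that library (0.50 ± 0.07, limma adjusted p = 2.43e-04). IFT20, which also sits at the Golgi, was higher in PANC-1 at 0.55 (limma adjusted p = 4.80e-05) and in PaTu 8988T at 0.15 (limma adjusted p = 0.0392). The PaTu 8988T call of IFT20 failed without control replicate 2 or 3 or shOFD1 replicate 1 or 2. It also failed with no filter, no variance trend or library weights, with limma adjusted p up to 0.149.

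IFT-A, which joins the return trip and brings membrane receptors in, had 4 of 7 genes higher and 1 lower in PANC-1, 4 higher and none lower in MIA PaCa-2, and 1 higher and 1 lower in PaTu 8988T. Of all genes 40.1%, 18.7% and 20.9% were higher and 32.2%, 21.7% and 18.5% lower in these lines. The MIA PaCa-2 count without control replicate 2 was 5 higher and 1 lower of 7, where 35.4% of all genes were higher and 39.8% lower. IFT140, a core subunit, read 0.678, 0.94 and 0.654 FPKM in the shControl libraries and 1.5, 1.63 and 1.75 FPKM in the shOFD1 libraries in MIA PaCa-2 (1.03 ± 0.17, limma adjusted p = 0.00389; without control replicate 2, 1.17 ± 0.13, limma adjusted p = 4.57e-05). It passed the 1 FPKM filter there only through its shOFD1 libraries. It was also higher in PANC-1, from 2.8, 2.96 and 2.69 to 4.29, 4.25 and 3.98 FPKM (0.55 ± 0.08, limma adjusted p = 1.07e-04). In PaTu 8988T IFT140 was lower, from 3.27, 3.17 and 3.04 to 2.41, 2.6 and 2.61 FPKM (-0.30 ± 0.07, limma adjusted p = 0.0105). The groups of IFT140 did not overlap in any line. IFT43, the smallest subunit, was higher in PANC-1 (0.61 ± 0.07, limma adjusted p = 3.80e-05) and MIA PaCa-2 (0.51 ± 0.09, limma adjusted p = 0.00592; without control replicate 2, 0.53 ± 0.06, limma adjusted p = 8.63e-05) and had -0.05 in PaTu 8988T (limma adjusted p = 0.509). WDR35 was the 1 IFT-A gene called higher in PaTu 8988T, where it read 3.81, 3.95 and 3.68 FPKM in the shControl libraries and 5.31, 4.83 and 4.92 FPKM in the shOFD1 libraries (0.39 ± 0.07, limma adjusted p = 0.00168). TULP3, the adaptor that hands receptors to IFT-A, was lower in PANC-1 by a small margin, from 15.3, 15.4 and 14.8 to 14, 13.6 and 12.8 FPKM (-0.17 ± 0.05, limma adjusted p = 0.00874).

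Kinesin-2, which pulls trains outward, is built from KIF3A, KIF3B and KIFAP3, and dynein-2, which pulls them back, from the heavy chain DYNC2H1 and the light intermediate chain DYNC2LI1 among others. DYNC2LI1 read 5.67, 4.95 and 5.39 FPKM in the shControl libraries and 16, 16.1 and 17.2 FPKM in the shOFD1 libraries in PANC-1 (1.60 ± 0.06, limma adjusted p = 8.80e-09). In MIA PaCa-2 it read 5.25, 3.45 and 4.68 FPKM in the shControl libraries and 9.93, 11.2 and 10.5 FPKM in the shOFD1 libraries (1.24 ± 0.16, limma adjusted p = 0.00183; without control replicate 2, 1.07 ± 0.07, limma adjusted p = 2.03e-06). In PaTu 8988T the 2 groups overlapped, with 3.01, 2.53 and 2.66 FPKM in the shControl libraries and 3.02, 3.25 and 2.98 FPKM in the shOFD1 libraries (0.17 ± 0.09, limma adjusted p = 0.140). DYNC2H1 read 0.992, 0.52 and 1.04 FPKM in the shControl libraries and 2.83, 2.91 and 3.26 FPKM in the shOFD1 libraries in MIA PaCa-2 (1.76 ± 0.25, limma adjusted p = 0.00232), and 1.47 ± 0.10, limma adjusted p = 2.56e-06 was the value without control replicate 2. The first of these was the largest log2 fold change of a cilium gene in the 3 fits, and without that library the largest was that of DYNC2LI1 in PANC-1. With all libraries DYNC2H1 passed the 1 FPKM filter in MIA PaCa-2 only through its shOFD1 libraries. In PANC-1 it read 2.16, 2.17 and 2.71 FPKM in the shControl libraries and 4.17, 3.78 and 4.25 FPKM in the shOFD1 libraries (0.77 ± 0.10, limma adjusted p = 8.37e-05). In PaTu 8988T, DYNC2H1 was lower, with 7.44, 7.44 and 7.34 FPKM in the shControl libraries and 6.32, 5.31 and 6.32 FPKM in the shOFD1 libraries (-0.31 ± 0.07, limma adjusted p = 0.00912).

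KIF3A went down in every line. It read 6.24, 6.87 and 6.54 FPKM in the shControl libraries and 3.25, 3.34 and 2.96 FPKM in the shOFD1 libraries in PANC-1 (-1.02 ± 0.07, limma adjusted p = 8.50e-07). In MIA PaCa-2 it read 2.6, 1.72 and 2.54 FPKM in the shControl libraries and 1.25, 1.24 and 1.13 FPKM in the shOFD1 libraries (-0.85 ± 0.18, limma adjusted p = 0.0106; without control replicate 2, -1.03 ± 0.10, limma adjusted p = 2.57e-05; without shOFD1 replicate 3, limma adjusted p = 0.0511). In PaTu 8988T it read 3.98, 4.17 and 3.66 FPKM in the shControl libraries and 2.79, 2.04 and 2.5 FPKM in the shOFD1 libraries (-0.68 ± 0.11, limma adjusted p = 0.00144). The shOFD1 libraries lay below all controls in each of the 3 lines, and KIF3A was the only cilium gene called lower in all 3, of 46 tested in all, where 3.71% of all genes were. Its partner KIF3B, the most abundant cilium gene in PANC-1, was lower by a small margin in PANC-1 at -0.15 (limma adjusted p = 0.00134) and in MIA PaCa-2 at -0.34 (limma adjusted p = 0.0139; without control replicate 2, -0.36 with 5.16e-05), and had 0.01 in PaTu 8988T (limma adjusted p = 0.824). In MIA PaCa-2 the KIF3B call did not hold when control replicate 1 or any 1 of the shOFD1 libraries was left out. The third kinesin-2 subunit, KIFAP3, was higher in PANC-1 (0.24 ± 0.06, limma adjusted p = 0.00365) and MIA PaCa-2 (0.49 ± 0.13, limma adjusted p = 0.0234; without control replicate 2, 0.36 ± 0.05, limma adjusted p = 2.20e-04), where its call failed without any 1 of the shOFD1 libraries.

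Many cilium genes are known to be switched on by RFX factors, which bind the X-box, a pair of half-sites in opposite orientation near the transcription start. RefSeq windows on GRCh38.p14, from 250 bases before to 50 bases after an annotated start, were found for 48 of the 53 genes. They were searched on both strands for the X-box and for the half-site GTTGCCA, whose reverse complement is TGGCAAC and which can lie inside an X-box. The half-site was present in at least 1 window of 13 of the 48 genes, 27.1%, against 4.98% of all 27305 genes with a window. This X-box word was present in ARL6 alone, 1 of 48, against 0.593% of all genes. None of the 48 held any of the E2F words TTTCCCGC, TTTGGCGC, TTTCGCGC and TTTGCCGC, against 3.99% of all genes, and 4 held the CHR word TTTGAA, against 18.2%. Such a match describes the letters and is not a measured binding site. The windows of both dynein-2 genes are printed below because they hold the half-site and both genes rose past 2-fold in at least 1 line, that of ARL6 because it holds the X-box, and that of KIF3A because the gene was lower in all 3 lines, with the half-site or X-box in capitals and each sequence written 5′ to 3′ on the gene's strand. They lie at chr2:43773789-43774088, plus strand for DYNC2LI1, chr11:103109176-103109475, plus strand for DYNC2H1, chr3:97764508-97764807, plus strand for ARL6 and chr5:132737497-132737796, minus strand for KIF3A. KIF3A has no match and so no capitals.
DYNC2LI1: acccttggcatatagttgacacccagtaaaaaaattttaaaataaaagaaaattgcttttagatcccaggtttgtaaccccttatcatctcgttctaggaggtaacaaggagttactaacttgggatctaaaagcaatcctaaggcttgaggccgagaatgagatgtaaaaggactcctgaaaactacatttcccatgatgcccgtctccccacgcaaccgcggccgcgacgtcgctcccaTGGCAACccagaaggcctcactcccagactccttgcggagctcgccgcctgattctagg
DYNC2H1: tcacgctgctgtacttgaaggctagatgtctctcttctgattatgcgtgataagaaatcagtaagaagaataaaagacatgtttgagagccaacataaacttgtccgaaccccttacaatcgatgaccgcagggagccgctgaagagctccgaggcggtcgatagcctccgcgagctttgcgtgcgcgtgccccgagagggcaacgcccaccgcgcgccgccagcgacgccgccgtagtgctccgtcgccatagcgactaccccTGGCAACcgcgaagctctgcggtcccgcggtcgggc
ARL6: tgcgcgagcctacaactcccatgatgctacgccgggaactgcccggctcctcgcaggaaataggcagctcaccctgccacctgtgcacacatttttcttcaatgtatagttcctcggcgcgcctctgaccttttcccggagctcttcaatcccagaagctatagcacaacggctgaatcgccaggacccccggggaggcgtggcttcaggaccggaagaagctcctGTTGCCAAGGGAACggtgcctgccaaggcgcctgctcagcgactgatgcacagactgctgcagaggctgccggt
KIF3A: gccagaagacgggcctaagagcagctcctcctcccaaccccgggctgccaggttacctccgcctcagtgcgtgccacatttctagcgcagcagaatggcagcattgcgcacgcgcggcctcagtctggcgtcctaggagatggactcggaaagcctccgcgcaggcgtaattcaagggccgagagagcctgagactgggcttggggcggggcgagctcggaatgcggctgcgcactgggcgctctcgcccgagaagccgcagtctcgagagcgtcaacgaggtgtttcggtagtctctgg

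The half-site began at position -9 in DYNC2LI1 and at position 15 in DYNC2H1, counted from the annotated start as position 1, and the X-box of ARL6 began at -24. In PANC-1, 7 of 13 genes with the half-site were higher and 2 lower, with a median log2 fold change of 0.20, and 21 of 35 without it were higher and 5 lower, with a median of 0.29. In MIA PaCa-2 the counts were 6 higher and 2 lower of 12 with it and 13 higher and 4 lower of 32 without it, with medians of 0.45 and 0.31, and without control replicate 2 they were 7 higher and 4 lower of 12 and 20 higher and 6 lower of 33. In PaTu 8988T none of 12 with it was called higher in limma and 4 were lower, and of 31 without it 7 were higher and 5 lower, with medians of -0.11 and -0.03. ARL6, with the X-box word, was not called in PANC-1 (-0.16 ± 0.10, limma adjusted p = 0.161) or PaTu 8988T (-0.09 ± 0.10, limma adjusted p = 0.496) and was under 1 FPKM in MIA PaCa-2.

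The BBSome is the coat that carries membrane proteins out of the cilium, ARL6 recruits it to membranes, and BBS10 and BBS12 are chaperonin-like proteins that help assemble it. In PANC-1 6 of 9 genes were higher and none lower, in MIA PaCa-2 5 of 8 and none, and in PaTu 8988T 2 of 8 were higher and 3 lower. Of all genes 40.1%, 18.7% and 20.9% were higher and 32.2%, 21.7% and 18.5% lower in these lines. With control replicate 2 left out, MIA PaCa-2 had 5 higher and 1 lower of 8, where 35.4% of all genes were higher and 39.8% lower. BBS12 was higher in all 3 lines although it was among the lowest in level. Its control means were 0.696 FPKM in MIA PaCa-2 and 0.925 FPKM in PaTu 8988T, under the 1 FPKM of the filter. In these lines BBS12 was therefore tested only through its shOFD1 libraries. It read 1.22, 1.02 and 1.19 FPKM in the shControl libraries and 1.84, 1.78 and 1.89 FPKM in the shOFD1 libraries in PANC-1 (0.64 ± 0.12, limma adjusted p = 6.99e-04). In MIA PaCa-2 it read 0.844, 0.521 and 0.724 FPKM in the shControl libraries and 1.96, 1.73 and 1.54 FPKM in the shOFD1 libraries (1.22 ± 0.19, limma adjusted p = 0.00346; without control replicate 2, 1.05 ± 0.14, limma adjusted p = 1.72e-04). In PaTu 8988T it read 1.13, 0.89 and 0.756 FPKM in the shControl libraries and 1.28, 1.59 and 1.22 FPKM in the shOFD1 libraries (0.52 ± 0.16, limma adjusted p = 0.0275), and this last call did not hold when control replicate 2, control replicate 3 or shOFD1 replicate 2 was left out. TTC8, also named BBS8, was higher in all 3 lines as well, at 0.56 in PANC-1 (limma adjusted p = 1.02e-04), 0.52 in MIA PaCa-2 (limma adjusted p = 0.0257; without control replicate 2, 0.41 with 0.00328) and 0.22 in PaTu 8988T (limma adjusted p = 0.0277). Its calls in MIA PaCa-2 and PaTu 8988T each failed in 4 of the 6 fits that left out 1 library, with adjusted p up to 0.107. IFT57, TTC8 and BBS12 were thus 3 of 46 genes called higher in all 3 lines, where 2.74% of all genes were. Without MIA PaCa-2 control replicate 2 there were 5, with IFT20 and IFT27. The share of all genes is not given for that fit, in which 35.4% of all genes were higher in MIA PaCa-2.

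BBS1, which binds cargo and the recruiting GTPase, rose in PANC-1 and MIA PaCa-2 and fell in PaTu 8988T. Its fall failed without control replicate 1 or shOFD1 replicate 3 of PaTu 8988T. BBS1 went from 3.35, 4.42 and 3.5 to 6.36, 6.6 and 7.15 FPKM in MIA PaCa-2 (0.83 ± 0.13, limma adjusted p = 0.00388; without control replicate 2, 0.95 ± 0.07, limma adjusted p = 3.34e-06). In PANC-1 it went from 3.85, 4.69 and 4.31 to 6.43, 5.98 and 5.69 FPKM (0.49 ± 0.08, limma adjusted p = 4.69e-04). In PaTu 8988T it went from 5.99, 5.71 and 5.83 to 4.95, 5.23 and 4.63 FPKM (-0.24 ± 0.06, limma adjusted p = 0.0152). In the GENCODE 29 annotation 91.2% of the exon bases of BBS1 are shared with another protein-coding gene on the same strand, AP002748.4, so the counting of its reads depends on how that model was treated. BBS9, a BBSome scaffold subunit, had the same directions, with 0.37 in PANC-1 (limma adjusted p = 0.0273), 0.36 in MIA PaCa-2 (limma adjusted p = 0.0482; without control replicate 2, 0.31 with 0.0441) and -0.35 in PaTu 8988T (limma adjusted p = 0.0327). The fall of BBS9 in PaTu 8988T did not hold in 5 of the 6 fits that left out 1 library. Its rise in PANC-1 failed without control replicate 3 or shOFD1 replicate 1 or 3. Its rise in MIA PaCa-2 failed without control replicate 1 or 3. BBS5, which binds phosphoinositides, read 4.98, 5.33 and 4.38 FPKM in the shControl libraries and 7.81, 8.23 and 7.68 FPKM in the shOFD1 libraries in PANC-1 (0.68 ± 0.08, limma adjusted p = 2.19e-05), was not called in MIA PaCa-2 (-0.17 ± 0.10, limma adjusted p = 0.224; without control replicate 2, -0.10 ± 0.06, limma adjusted p = 0.139), and was listed at 0 in all 6 PaTu 8988T libraries. BBS10 was lower in PaTu 8988T (-0.24 ± 0.06, limma adjusted p = 0.00966) and was called lower in MIA PaCa-2 only without control replicate 2 (-0.73 ± 0.08, limma adjusted p = 6.22e-05).

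The transition zone is the gate between the cell and the cilium, built from the tectonics, the B9 proteins, the meckelin group and the nephrocystins. Of its 14 genes, 8 were higher and 1 lower in PANC-1, 6 of 13 higher and 2 lower in MIA PaCa-2, and 2 of 13 higher and 5 lower in PaTu 8988T. Of all genes 40.1%, 18.7% and 20.9% were higher and 32.2%, 21.7% and 18.5% lower in these lines. Without control replicate 2, the MIA PaCa-2 count was 7 higher and 3 lower of 13, where 35.4% of all genes were higher and 39.8% lower. TMEM67, which encodes meckelin, read 1.74, 1.05 and 1.24 FPKM in the shControl libraries and 2.67, 3.17 and 2.69 FPKM in the shOFD1 libraries in MIA PaCa-2 (1.05 ± 0.19, limma adjusted p = 0.00637). The rise of TMEM67 without control replicate 2 was 0.90 ± 0.14, limma adjusted p = 5.38e-04, which is under 2-fold. In PANC-1 it went from 5.01, 4.97 and 5.18 to 6.29, 6.87 and 6.89 FPKM (0.40 ± 0.06, limma adjusted p = 2.45e-04), and in PaTu 8988T the shOFD1 libraries were the lower ones, with 8.24, 8.75 and 8.77 FPKM in the shControl libraries and 7.26, 6.63 and 6.71 FPKM in the shOFD1 libraries (-0.32 ± 0.06, limma adjusted p = 0.00222). TCTN2 and B9D1 shared these directions. TCTN2 had 0.46, 0.55 and -0.15 in PANC-1, MIA PaCa-2 and PaTu 8988T, with limma adjusted p = 3.26e-05, 0.00644 and 0.0351. Its MIA PaCa-2 value without control replicate 2 was 0.54 ± 0.07, limma adjusted p = 2.09e-04. The fall of TCTN2 in PaTu 8988T failed without any 1 of the controls or shOFD1 replicate 1, with limma adjusted p up to 0.121. B9D1 had 0.36, 0.64 and -0.33, with limma adjusted p = 0.00491, 0.0114 and 0.00420, and 0.75 ± 0.09, limma adjusted p = 8.15e-05 in MIA PaCa-2 without control replicate 2. That line's call failed without shOFD1 replicate 1 or 3. TCTN1 rose in PANC-1 (0.56 ± 0.05, limma adjusted p = 2.32e-06) and MIA PaCa-2 (0.61 ± 0.12, limma adjusted p = 0.00733; without control replicate 2, 0.51 ± 0.06, limma adjusted p = 5.22e-05) and had -0.10 in PaTu 8988T (limma adjusted p = 0.298).

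B9D2, a partner of B9D1 in the gate, went the other way from it. It read 1.87, 3.64 and 2.3 FPKM in the shControl libraries and 1.24, 1.35 and 1.07 FPKM in the shOFD1 libraries in MIA PaCa-2 (-0.99 ± 0.24, limma adjusted p = 0.0192), where control replicate 2 held the highest value, and the fall was -0.72 ± 0.14, limma adjusted p = 0.00144 without that library. Leaving out any 1 of the MIA PaCa-2 shOFD1 libraries took the call away, with adjusted p between 0.0532 and 0.0774. In PaTu 8988T it read 1.25, 1.36 and 1.75 FPKM in the shControl libraries and 2.36, 2.12 and 2.19 FPKM in the shOFD1 libraries (0.59 ± 0.12, limma adjusted p = 0.00476), the largest rise of a cilium gene in that line. In PANC-1 the groups overlapped, with 1.7, 2.21 and 1.98 FPKM in the shControl libraries and 1.65, 2.29 and 3.03 FPKM in the shOFD1 libraries (0.20 ± 0.19, limma adjusted p = 0.365). TMEM231 was lower in PANC-1, from 4.52, 4.16 and 4.5 to 3.19, 2.71 and 2.75 FPKM (-0.59 ± 0.09, limma adjusted p = 1.36e-04), and in PaTu 8988T, from 2.47, 2.43 and 2.64 to 1.89, 2.2 and 1.77 FPKM (-0.35 ± 0.10, limma adjusted p = 0.0176). In MIA PaCa-2 TMEM231 had 0.03 (limma adjusted p = 0.844). TMEM216 was higher in PANC-1 (0.33 ± 0.09, limma adjusted p = 0.00911) and PaTu 8988T (0.34 ± 0.09, limma adjusted p = 0.0185). In PaTu 8988T the call of TMEM231 failed without replicate 3 of either group, and that of TMEM216 without control replicate 1, control replicate 2 or shOFD1 replicate 3. TCTN3 was 1 of the 2 most abundant cilium genes in each line and changed little, by 0.15 in PANC-1 (limma adjusted p = 0.00269) and by -0.23 in MIA PaCa-2 (limma adjusted p = 0.0408; without control replicate 2, -0.23 with 6.22e-04). The MIA PaCa-2 call of TCTN3 failed in 5 of the 6 fits that left out 1 library, all but that without control replicate 2. It also failed with median centring or no variance trend, with limma adjusted p up to 0.173.

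Distal appendages anchor the mother centriole to the membrane. In PANC-1 3 genes were higher and 3 lower of 7, in MIA PaCa-2 1 and 1 of 6, and in PaTu 8988T limma called none of 6, with an unadjusted p below 0.05 in 3, SCLT1, FBF1 and ALMS1. Of all genes 40.1% and 18.7% were higher and 32.2% and 21.7% lower in the first 2 lines, and 39.4% were called in PaTu 8988T. In MIA PaCa-2 the count without control replicate 2 was 2 higher and 2 lower of 7, where 35.4% of all genes were higher and 39.8% lower. One of the 2 lower was CEP83, which passed the 1 FPKM filter in that line only in that fit. SCLT1, one of the inner appendage proteins, read 1.49, 1.49 and 1.31 FPKM in the shControl libraries and 0.844, 0.556 and 0.655 FPKM in the shOFD1 libraries in PANC-1 (-0.98 ± 0.17, limma adjusted p = 4.16e-04). Its shOFD1 libraries there were all under the 1 FPKM of the filter, so that SCLT1 was tested in PANC-1 only through its shControl libraries. In MIA PaCa-2 it read 2.79, 2.05 and 2.69 FPKM in the shControl libraries and 1.31, 1.31 and 1.46 FPKM in the shOFD1 libraries (-0.83 ± 0.15, limma adjusted p = 0.00608; without control replicate 2, -0.96 ± 0.10, limma adjusted p = 3.34e-05). In PaTu 8988T the groups overlapped, with 1.93, 1.79 and 1.77 FPKM in the shControl libraries and 1.77, 1.39 and 1.43 FPKM in the shOFD1 libraries (-0.25 ± 0.11, limma adjusted p = 0.102). CEP83, which is placed first and recruits the others, was lower in PANC-1, from 1.37, 1.3 and 1.5 to 1.12, 1.0 and 0.971 FPKM (-0.40 ± 0.13, limma adjusted p = 0.0179). TTBK2, the kinase that CEP164 brings in to start ciliogenesis, was lower in PANC-1 as well, from 3.84, 4.08 and 4.07 to 3.32, 3.27 and 3.58 FPKM (-0.23 ± 0.07, limma adjusted p = 0.0168). Both calls depended on the library set: that of CEP83 failed without control replicate 3 or shOFD1 replicate 3, and that of TTBK2 without control replicate 2, control replicate 3 or shOFD1 replicate 2. CEP164 itself was higher in PANC-1, from 7.84, 8.11 and 7.73 to 11.9, 11.4 and 11.2 FPKM (0.54 ± 0.05, limma adjusted p = 5.00e-06), and was not called in the other lines, at -0.11 (limma adjusted p = 0.377) in MIA PaCa-2 and -0.03 (limma adjusted p = 0.712) in PaTu 8988T. CEP89 was higher in PANC-1 (0.43 ± 0.06, limma adjusted p = 1.10e-04) and in MIA PaCa-2 (0.31 ± 0.10, limma adjusted p = 0.0397; without control replicate 2, 0.34 ± 0.06, limma adjusted p = 0.00111). The latter call failed in 5 of the 6 fits that left out 1 library, again all but that without control replicate 2. It failed with no filter as well, with limma adjusted p up to 0.154.

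The 3 lines were compared through an interaction term, the difference between 2 lines in their log2 fold change, over the 46 cilium genes and 9083 genes tested in all 3. PANC-1 and MIA PaCa-2 shared the most calls. Of 49 genes tested in both, 21 were higher in both, 42.9%, where 11.5% of all genes were. These 21 were 65.6% of the cilium genes higher in PANC-1 and 91.3% of those higher in MIA PaCa-2. Over all genes the same shares were 28.6% and 66.8%. KIF3A, KIF3B and SCLT1 were lower in both, where 13.7% of all genes were, and none was lower in PANC-1 and higher in MIA PaCa-2 in limma, where 2.58% of all genes were. Of these 3, SCLT1 passed the filter in PANC-1 only through its shControl libraries. With MIA PaCa-2 control replicate 2 left out, 26 were higher in both. The shares of all genes called alike in both lines are not given for that fit, in which 35.4% of all genes were higher and 39.8% lower in MIA PaCa-2. Lower in both were then 5, CEP83 and TULP3 among them. In MIA PaCa-2 CEP83 passed the 1 FPKM filter only in that fit, with its controls the higher group (-0.50 ± 0.14). The correlation of the log2 fold changes over these 49 genes was 0.64 (Pearson) and 0.59 (Spearman), against 0.51 and 0.49 over 9553 genes. Between PANC-1 and PaTu 8988T it was 0.32 and 0.13 over 48 genes, and between MIA PaCa-2 and PaTu 8988T -0.03 and -0.09 over 46 genes. Genes are not independent replicates, so these correlations are descriptions.

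PaTu 8988T differed most from MIA PaCa-2. For 31 of 46 genes the interaction had an adjusted p below 0.05, with 26 of them lower in PaTu 8988T, where 52.9% of all genes differed with 31.0% higher and 21.8% lower. Against PANC-1, 21 of 46 differed, with 20 of them lower in PaTu 8988T, where 35.8% of all genes differed with 18.7% higher and 17.1% lower. Between MIA PaCa-2 and PANC-1, 16 of 46 differed, 9 higher and 7 lower in MIA PaCa-2, where 43.4% of all genes differed, 17.3% higher and 26.1% lower. The median interaction over the 46 genes was -0.52, -0.34 and 0.11 in that order. Without MIA PaCa-2 control replicate 2, 37 genes differed between PaTu 8988T and MIA PaCa-2, 29 of them lower in PaTu 8988T, and 20 between MIA PaCa-2 and PANC-1, 11 higher and 9 lower in MIA PaCa-2. Of all 9086 genes in that fit, 70.9% and 64.3% differed in these 2 contrasts. In the first 3763 were higher and 2677 lower in PaTu 8988T, and in the second 2283 were higher and 3558 lower in MIA PaCa-2. All contrasts share 1 residual spread over the 18 libraries, so that library also enters the errors of PaTu 8988T minus PANC-1. That contrast is not given without it. DYNC2H1 had the largest, -2.06 ± 0.24, limma adjusted p = 3.62e-06 for PaTu 8988T minus MIA PaCa-2 (without control replicate 2, -1.78 ± 0.13, limma adjusted p = 1.14e-09), and DYNC2LI1 the largest against PANC-1, -1.43 ± 0.17, limma adjusted p = 6.24e-06. With all libraries DYNC2H1 passed the 1 FPKM filter in MIA PaCa-2 only through its shOFD1 libraries. B9D2 differed in the other direction, 1.58 ± 0.31, limma adjusted p = 4.81e-04 for PaTu 8988T minus MIA PaCa-2 (without control replicate 2, 1.32 ± 0.25, limma adjusted p = 1.15e-04).

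Opposite calls in 2 lines were found for 10 genes. Higher in PANC-1 and lower in PaTu 8988T were 8, IFT81, IFT140, DYNC2H1, BBS1, BBS9, TCTN2, TMEM67 and B9D1, of 48 tested in both, where 3.61% of all genes were. All but IFT81 were also higher in MIA PaCa-2, 7 of 46, where 4.22% of all genes were, and without control replicate 2 of that line IFT81 and NPHP4 joined them. That share is not given for the fit without it, in which 35.4% of all genes were higher in MIA PaCa-2. With all libraries DYNC2H1 and IFT140 were tested in MIA PaCa-2 only through its shOFD1 libraries. NPHP4, a nephrocystin of the transition zone, was lower in PaTu 8988T (-0.31 ± 0.08, limma adjusted p = 0.0172), a call that failed without control replicate 2 or shOFD1 replicate 3. TCTN3 was higher in PANC-1 and lower in MIA PaCa-2, where 3.62% of all genes were. B9D2 was lower in MIA PaCa-2 and higher in PaTu 8988T, where 6.43% were. None was lower in PANC-1 and higher in PaTu 8988T in limma, where 4.64% were. Called alike in PANC-1 and PaTu 8988T were 7 higher, where 11.7% of all genes were, and 2 lower, KIF3A and TMEM231, where 10.5% were. In MIA PaCa-2 and PaTu 8988T these were 3 higher, where 3.33% were, and KIF3A lower, where 4.05% were. Of the 10 genes with opposite calls, 1 is in IFT-B, 1 in IFT-A, 1 is a motor, 2 are in the BBSome and 5 in the transition zone.

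**Figure D4:**
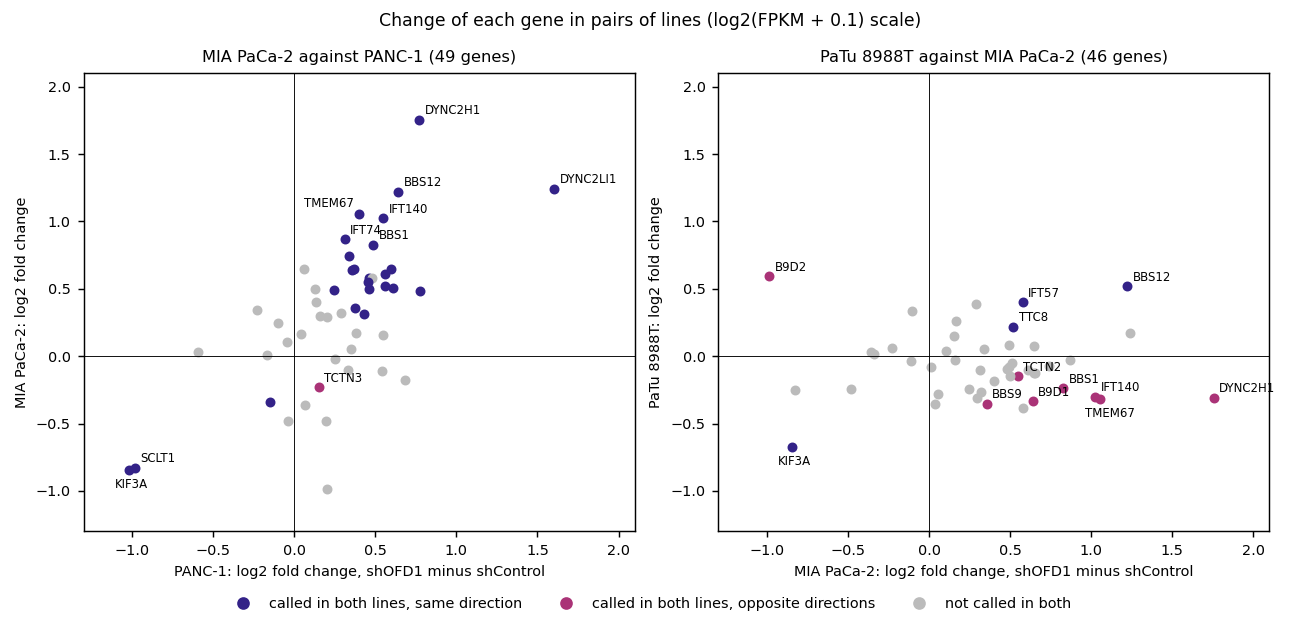
Log2 fold change of each cilium and basal body gene, shOFD1 minus shControl on the log2(FPKM + 0.1) scale, in MIA PaCa-2 against PANC-1 (left, 49 genes) and in PaTu 8988T against MIA PaCa-2 (right, 46 genes). Dark blue points were called in both lines in the same direction, purple points in opposite directions and grey points not in both. The left panel has most points above and right of 0, and in the right panel 7 of the 8 purple points are at positive values on the x axis and negative values on the y axis.

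Further cilium genes outside the 53 were read from 6 lists covering other IFT, BBSome and dynein-2 subunits, further transition zone proteins, membrane trafficking, other mother centriole appendages, capping and disassembly of the cilium, and transcription factors. In PANC-1 21 of 65 tested were higher and 23 lower, in MIA PaCa-2 10 and 12 of 62, and in PaTu 8988T 4 and 11 of 61, with median log2 fold changes of -0.02, -0.06 and -0.01. Of all genes, 40.1% were higher and 32.2% lower in PANC-1. The shares were 18.7% and 21.7% for MIA PaCa-2. They were 20.9% and 18.5% for PaTu 8988T. Without control replicate 2 the MIA PaCa-2 count was 20 higher and 30 lower of 62, with a median of -0.17, where 35.4% of all genes were higher and 39.8% lower. BBIP1, the smallest BBSome subunit, had the largest fall of these lists, reading 11.5, 10.4 and 11.1 FPKM in the shControl libraries and 3.32, 3.09 and 3.14 FPKM in the shOFD1 libraries in PANC-1 (-1.75 ± 0.06, limma adjusted p = 6.02e-09) and 4.2, 2.43 and 4.74 FPKM in the shControl libraries and 1.09, 1.08 and 1.12 FPKM in the shOFD1 libraries in MIA PaCa-2 (-1.65 ± 0.24, limma adjusted p = 0.00278; without control replicate 2, -1.94 ± 0.09, limma adjusted p = 4.05e-07). In PaTu 8988T BBIP1 had -0.24 (limma adjusted p = 0.136). ARL2BP, which binds the GTPases ARL2 and ARL3, was lower in MIA PaCa-2 (-1.18 ± 0.09, limma adjusted p = 2.64e-04; without control replicate 2, -1.25 ± 0.04, limma adjusted p = 3.01e-08) and PANC-1 (-0.87 ± 0.04, limma adjusted p = 1.41e-08). TMEM138, past 2-fold in MIA PaCa-2, fell from 8.83, 8.4 and 9.23 to 4.38, 4.45 and 3.88 FPKM (-1.04 ± 0.10, limma adjusted p = 6.29e-04; without control replicate 2, -1.08 ± 0.07, limma adjusted p = 2.31e-06) and rose in PaTu 8988T (0.28 ± 0.06, limma adjusted p = 0.00427).

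Of the mother centriole appendage genes outside the 53, 5 of 6 were lower and 1 higher in PANC-1, in MIA PaCa-2 3 of 6 lower and none higher, and in PaTu 8988T 3 of 7 lower and none higher, where 32.2%, 21.7% and 18.5% of all genes were lower. Without control replicate 2, MIA PaCa-2 had 0 higher and 5 lower of 6 appendage genes and 2 higher and 6 lower of 10 genes of capping and disassembly. Of all genes 35.4% were higher and 39.8% lower in that fit. CEP170, a subdistal appendage protein, read 14.2, 13.4 and 14.2 FPKM in the shControl libraries and 5.82, 5.59 and 6.8 FPKM in the shOFD1 libraries in PANC-1 (-1.19 ± 0.07, limma adjusted p = 2.54e-07) and 11.3, 12 and 10.9 FPKM in the shControl libraries and 7.86, 6.58 and 7.25 FPKM in the shOFD1 libraries in PaTu 8988T (-0.65 ± 0.07, limma adjusted p = 1.22e-04). NIN, which anchors microtubules there, was lower in PANC-1 (-0.87 ± 0.07, limma adjusted p = 1.24e-06), MIA PaCa-2 (-0.75 ± 0.19, limma adjusted p = 0.0192; without control replicate 2, -0.96 ± 0.07, limma adjusted p = 3.36e-06) and PaTu 8988T (-0.29 ± 0.08, limma adjusted p = 0.0176). Genes of cilium capping and disassembly were lower in PANC-1, 8 of 10 with 1 higher, and in 3 of 10 in MIA PaCa-2 with 1 higher, and 1 of 10 was lower and 1 higher in PaTu 8988T, beside the same shares of all genes. AURKA, the kinase that starts disassembly and also acts in mitosis, had -1.0 in PANC-1, -0.99 in MIA PaCa-2 and 0.19 in PaTu 8988T, with limma adjusted p = 4.02e-09, 4.19e-04 and 0.00348, and -1.07 ± 0.03, limma adjusted p = 1.84e-08 in MIA PaCa-2 without control replicate 2. Of the RFX family, some members of which switch on cilium genes while RFX5 is known as a regulator of MHC class II genes, RFX7 was higher in PANC-1 (0.52 ± 0.07, limma adjusted p = 5.06e-05) and MIA PaCa-2 (0.91 ± 0.24, limma adjusted p = 0.0229; without control replicate 2, 0.63 ± 0.07, limma adjusted p = 6.52e-05), RFX5 lower in PANC-1 (-0.37 ± 0.05, limma adjusted p = 3.88e-05) and higher in MIA PaCa-2 (0.36 ± 0.07, limma adjusted p = 0.00755; without control replicate 2, 0.36 ± 0.03, limma adjusted p = 1.71e-05), and RFX2 lower in PaTu 8988T (-0.26 ± 0.09, limma adjusted p = 0.0427).

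Proliferation markers also differed between groups. All 10 were lower in PANC-1 with a median of -1.05, 9 of 10 were lower in MIA PaCa-2 with a median of -0.69, and in PaTu 8988T 5 of 10 were higher and none lower in limma with a median of 0.12, where 32.2% of all genes were lower in PANC-1, 21.7% lower in MIA PaCa-2 and 20.9% higher in PaTu 8988T. With control replicate 2 left out, MIA PaCa-2 had 0 higher and 10 lower of 10, where 35.4% of all genes were higher and 39.8% lower. PCNA, the sliding clamp of replication, went from 83.4, 86.1 and 87.2 to 44.9, 42.4 and 38.5 FPKM in PANC-1 (-1.03 ± 0.05, limma adjusted p = 4.22e-08), from 224, 192 and 224 to 97.7, 94.8 and 94.6 FPKM in MIA PaCa-2 (-1.15 ± 0.08, limma adjusted p = 2.07e-04; without control replicate 2, -1.23 ± 0.02, limma adjusted p = 4.63e-09) and from 144, 139 and 134 to 173, 169.9 and 173 FPKM in PaTu 8988T (0.30 ± 0.04, limma adjusted p = 2.09e-04). The part of these markers in the changes of the cilium genes was not tested.

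In level the cilium genes were low. The median over the genes tested was 4.90 FPKM in PANC-1, 4.35 FPKM in MIA PaCa-2 and 4.07 FPKM in PaTu 8988T, against 10.4, 8.81 and 8.98 FPKM over all genes tested. A total of 46 of 53, 42 of 49 and 40 of 48 were under 10 FPKM. The most abundant were KIF3B in PANC-1 at 52.2 FPKM, TCTN3 in MIA PaCa-2 at 29.4 FPKM and IFT20 in PaTu 8988T at 29.3 FPKM. Recovered read counts for the genes tested ran from 63 to 11764 per library, with medians of 868, 899 and 853 reads in the 3 lines. The gene lengths behind the values were the same in MIA PaCa-2 and PaTu 8988T for 52 of 52 cilium genes and in PANC-1 and PaTu 8988T for 16 of 52.

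Some of the 53 could not be tested in a line. IFT80, a subunit of IFT-B, read 9.36 to 13.7 FPKM in PANC-1, where it was higher (0.29 ± 0.08, limma adjusted p = 0.00853), but at most 0.0517 FPKM in MIA PaCa-2 and 0.0368 FPKM in PaTu 8988T. The row of the readthrough gene TRIM59-IFT80, looked up after these values were seen, was at 0 in the PANC-1 libraries and between 0.0376 and 0.213 FPKM in the other 2 lines. In GENCODE 29, 41.7% of the exon bases of IFT80 and 28.7% of those of BBS5 are shared with another protein-coding gene on the same strand. Of the 53, 22 share exon bases with another gene on either strand. ARL6, which read 1.09, 0.443 and 0.968 and 0.88, 0.978 and 0.793 FPKM in control and shOFD1 libraries, CC2D2A and CEP83 were under 1 FPKM on average in MIA PaCa-2. IFT46, which read 1.29, 1.2 and 1.15 and 0.849, 0.801 and 0.698 FPKM with no overlap between groups, RPGRIP1L and CEP83 were so in PaTu 8988T.

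Across all fits that left out a library or changed a setting, 33 of the 40 calls in PANC-1, 15 of the 29 in MIA PaCa-2 and 9 of the 20 in PaTu 8988T held in each fit in which the gene was tested, and none changed direction. For 1 gene alone, the smallest two-sided p that an exact permutation of 3 and 3 libraries allows is 0.1.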

How the data were processed

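The 18 libraries were RNA-seq of bulk cultures. The authors aligned reads with HISAT2 and deposited FPKM values, 1 table for the 3 lines, with every library in a column of its own. The genome annotation behind the counts is not given in the sources used here. The gene length used for a gene differed between PANC-1 and the other lines for many genes, so lines were fitted apart and levels were not compared with PANC-1. Read numbers were recovered from the steps of low FPKM values, and serve to describe depth and to compare replicates by chi-square.

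For each line a linear model of log2(FPKM + 0.1) was made in limma (version 3.58.1, R version 4.3.3, eBayes with trend) over all genes with a mean of at least 1 FPKM, with Benjamini-Hochberg adjustment. Interactions between lines were fitted over all 18 libraries. The scripts were tested on simulated data, and figures used Python 3.11.15 with matplotlib 3.10.9. FPKM is not a count, so no count test was run, although the study tested read counts. Genes were named by rule: OFD1, cilium genes past 2-fold, the 6 largest rises and 6 largest falls per line among those with no overlap, genes called alike or oppositely between lines, the 3 largest interactions per pair of lines, genes not tested in a line, and of the other lists those past 2-fold or with the 2 smallest p-values per line, of which 1 is not reported here. Further members were described for their role in a group, after their values were seen. The members and lists were chosen with earlier results of these data known. Alternatives were pseudocounts of 1 and 0.01, other filters, median centring, no variance trend, library weights, a replicate block and leaving out each library.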

Additional observations from a re-analysis of the deposited data

Results flagged for a closer look

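The response to the knockdown differed between lines for these genes, by the interaction term on the log2(FPKM + 0.1) scale. Between PaTu 8988T and MIA PaCa-2 (PaTu 8988T minus MIA PaCa-2), DYNC2H1 differed by -2.06 ± 0.24 (limma adjusted p = 3.62e-06), IFT140 by -1.33 ± 0.15 (limma adjusted p = 2.19e-06) and TMEM67 by -1.37 ± 0.18 (limma adjusted p = 9.20e-06). With all 18 libraries DYNC2H1 and IFT140 passed the 1 FPKM filter in MIA PaCa-2 only through its shOFD1 libraries. BBS1 differed by -1.07 ± 0.14 (limma adjusted p = 1.18e-05), B9D1 by -0.97 ± 0.13 (limma adjusted p = 1.54e-05), IFT81 by -0.97 ± 0.23 (limma adjusted p = 0.00239) and TCTN2 by -0.70 ± 0.09 (limma adjusted p = 1.09e-05). B9D2 had the opposite sign, 1.58 ± 0.31 (limma adjusted p = 4.81e-04).

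Between PaTu 8988T and PANC-1 (PaTu 8988T minus PANC-1), DYNC2LI1 differed by -1.43 ± 0.17 (limma adjusted p = 6.24e-06), DYNC2H1 by -1.08 ± 0.24 (limma adjusted p = 0.00248), IFT22 by -0.87 ± 0.09 (limma adjusted p = 1.55e-06) and BBS9 by -0.72 ± 0.14 (limma adjusted p = 8.18e-04). Between MIA PaCa-2 and PANC-1 (MIA PaCa-2 minus PANC-1), B9D2 differed by -1.18 ± 0.31 (limma adjusted p = 0.00584), DYNC2H1 by 0.99 ± 0.24 (limma adjusted p = 0.00400), TMEM67 by 0.66 ± 0.18 (limma adjusted p = 0.00702) and TCTN3 by -0.38 ± 0.06 (limma adjusted p = 1.06e-04). When control replicate 2 of MIA PaCa-2 was left out, the 12 of these differences that use that line kept their sign, with limma adjusted p of 0.00349 or lower, and lay between -1.78 and 1.32. The differences between PaTu 8988T and PANC-1 are not given without that library, although it enters their standard errors.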

How the results depend on the processing

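No result changed direction. Requiring a mean of at least 5 FPKM, which leaves fewer genes, gave 2 lower and 1 past 2-fold in PANC-1, 12 higher, 2 lower and 1 past 2-fold in MIA PaCa-2, and 3 higher and 5 lower in PaTu 8988T, and the cilium genes whose response differed between lines numbered 5 (MIA PaCa-2 minus PANC-1), 6 (PaTu 8988T minus PANC-1) and 8 (PaTu 8988T minus MIA PaCa-2). A pseudocount of 1 gave 1 past 2-fold in PANC-1 and 2 in MIA PaCa-2. With no filter, 3 were higher in PaTu 8988T and OFD1 in MIA PaCa-2 stayed at -0.61 with limma adjusted p = 0.0504. Library weights gave 22 lower in PaTu 8988T. The cause of these shifts, apart from the smaller gene set, was not tested. Leaving out each library gave 29 to 31 higher, 5 to 7 lower and 1 to 3 past 2-fold in PANC-1, 14 to 31, 1 to 10 and 4 to 5 in MIA PaCa-2, and 3 to 6, 8 to 16 and 0 in PaTu 8988T. OFD1 then ranged from -1.13 to -0.99, -0.76 to -0.52 and -1.15 to -1.06. The interactions, for which only libraries of the lines compared were left out, ranged from 11 to 20, 19 to 24 and 28 to 37 genes. Without MIA PaCa-2 control replicate 2, 64.3% of all genes differed between MIA PaCa-2 and PANC-1 and 70.9% between PaTu 8988T and MIA PaCa-2. The extremes in MIA PaCa-2 came without control replicate 2 (31 higher, 10 lower) and without shOFD1 replicate 1 (14 higher) or shOFD1 replicate 3 (1 lower), and 3 were higher in PaTu 8988T without control replicate 2. Whether replicate numbers pair the samples was not given. In their deviations from group means, same-numbered libraries correlated between -0.11 and 0.13 and differently numbered ones between -0.23 and 0.23, which cannot settle it. With the number as a replicate block 3 genes were lower in MIA PaCa-2. Of the values for named genes, 40 lost their call in a fit that left out a library and 13 under another setting, with the same sign. Genes with a mean under 1 FPKM were left out by the filter, a choice and not a limit of depth.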
